A study of Homo sapiens with 16 samples.

Results

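Cells of 1 liver cancer line that had been made to tolerate Sorafenib in 2 ways were set directly against each other. Hep3B-IR cells had been grown in increasing concentrations of Sorafenib, and Hep3B-CR cells in a constantly high concentration, and both carried 7 µM Sorafenib when sampled, per the labels. The comparison used 4 of the 16 RNA-sequencing libraries of the series, chosen by their labels: Hep3B-IR replicates 1 and 2 and Hep3B-CR replicates 1 and 2. The other libraries were parental Hep3B cells, Hep3B cells labelled DMSO and the matching groups of the Huh7 line, with 2 libraries a group. In the test of the regimens they served to estimate the spread between replicates, and they counted in the filter that decided which genes were tested. The parental Hep3B libraries are also quoted as a reference level, joined by the DMSO libraries where these stood elsewhere relative to IR or CR. The Huh7 libraries are used for the same contrast at the end. Each regimen is represented by a single resistant line, so that the regimen and the history of that line cannot be told apart. The study's methods speak of RNA from biological triplicates, but they name another sequencer and library kit than the labels. The labels give 2 libraries a group and do not say whether these came from separate cultures, so that the p-values measure the spread between these libraries, which may be technical.

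Hep3B is a line of human hepatocellular carcinoma that secretes liver plasma proteins. Sorafenib is an oral kinase inhibitor that blocks RAF kinases and the receptors of VEGF and PDGF. Hepatocytes are the cells that make albumin, lipoproteins, clotting factors and drug-metabolising enzymes, and liver cancer cells that lose this programme often take up genes of matrix, migration and other lineages. The extracellular matrix around such cells is a mesh of collagens, laminins and glycoproteins, anchored by integrins and trimmed by proteases. The genes below follow these roles, from drug metabolism and plasma proteins to matrix, signalling and stress.

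The values are CPM, the reads of a gene scaled to the same library total in every library. The IR libraries held 74739455 and 70356198 reads over genes and the CR libraries 75527374 and 52520852, and CR replicate 2 was therefore the shallowest of the 4. All 10 hepatocyte lineage markers were above 1 CPM in every Hep3B library. Their summed level was 3599 and 10908 CPM in the IR libraries, 2195 and 3419 in the CR libraries, and 19654 and 24314 in the parental libraries. IR replicate 2 stood well above the other 3 resistant libraries on this sum, and every hepatocyte gene named below is given with both IR values. Of the markers of other cells, the 9 endothelial genes summed to between 0.48 and 1.08 CPM in the 4 libraries, with CDH5 at 0 in each. The 10 leukocyte genes summed to between 32.4 and 55.7 CPM, with CD68 the largest part at 27.6 to 51.2 CPM and PTPRC at 0.0530 to 0.0995 CPM. The 12 fibroblast and stellate cell genes summed to 114 and 82.4 CPM in IR and 105 and 83.6 CPM in CR, beside 69.8 and 75.2 CPM in parental cells. COL1A1 was at 62.9 and 11.5 CPM in IR, 66.2 and 47.3 CPM in CR and 0.162 and 0.0422 CPM in parental cells. PDGFRA was at 15.9 and 39.2 CPM in IR and 6.96 and 4.86 CPM in CR. By contrast, COL3A1 was at 0.0132 to 0.0669 CPM, and DCN was at 0 in both CR libraries. The part of admixed cells in any result was not tested beyond these sums.

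Of 15019 genes tested with limma, 1764 (11.7%) differed between the regimens, with an adjusted p under 0.05 and a change of 0.58 or more on the log2 scale. Of these, 801 (5.33%) were higher in IR and 963 (6.41%) higher in CR. The study's looser rule, an unadjusted p with the same fold, gave 1189 (7.92%) and 1482 (9.87%). In each of the 1764 genes both IR libraries lay beyond both CR libraries, whereas over all genes tested IR lay above CR without overlap in 28.3% and below in 36.8%. Leaving out IR replicates 1 and 2 and CR replicates 1 and 2 in turn left 507, 326, 450 and 352 genes higher in IR and 644, 339, 475 and 436 higher in CR. With 2 libraries against 2, an exact permutation test could not give a 2-sided p below 0.333, and the calls draw on the spread over all groups. Fold changes are on the log2(CPM + 1) scale, IR over CR, and understate the change of genes with a low level. The test was repeated under 17 alternatives, such as other scalings, pseudocounts and filters, and lost calls of a gene are listed below for a left-out library, edgeR and DESeq2, with the number over all alternatives where 9 or more lost the call.

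**Figure D1:**
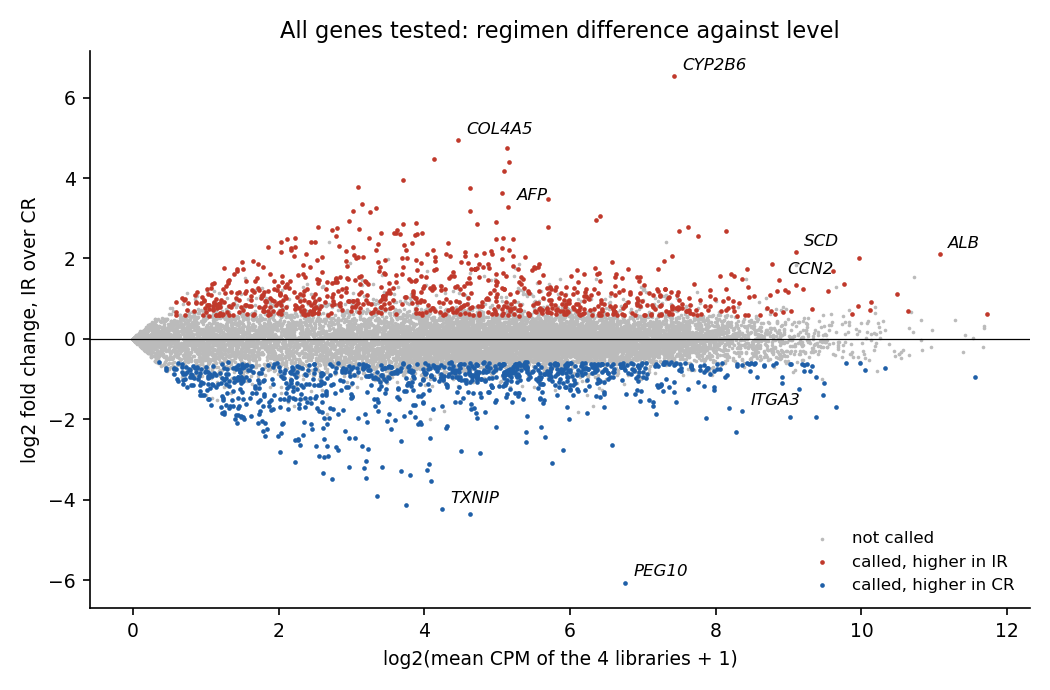
Regimen difference of each of the 15019 genes tested (y axis, log2 fold change IR over CR) against its level (x axis, log2 of the mean CPM of the 4 libraries plus 1), with genes called higher in IR in red and higher in CR in blue. CYP2B6 at 6.53 and PEG10 at -6.06 lie farthest from 0, and the calls spread over the whole range of levels.

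The largest difference was that of CYP2B6, a cytochrome P450 of the liver that oxidises many drugs. It was at 271 and 407 CPM in the IR libraries and 3.56 and 1.83 CPM in the CR libraries, beside 0.7 and 1.51 CPM in parental cells, a log2 fold change of 6.53 ± 0.39 (SE; adjusted p = 1.31e-06). Both IR libraries were far above every other Hep3B library, and CR was near the parental level. CYP2B7P, a pseudogene copy of CYP2B6 whose reads are hard to keep apart from it, was at 12.8 and 17.1 CPM in IR and 0.172 and 0.114 CPM in CR. The receptors that are best known to drive CYP2B6 in liver were scarce. NR1I3, the receptor CAR, had 0 reads in both IR libraries and 0 and 1 read in the CR libraries, and 0 reads allow up to 3 reads, or 0.0426 CPM in the shallower IR library. NR1I2, the receptor PXR, had 23 and 23 reads in IR and 3 and 1 in CR, and the difference of its low level did not pass the test (log2 fold change 0.36, adjusted p = 0.481). Both receptors were looked up after the level of CYP2B6 had been seen.

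The 250 bases before the annotated start of CYP2B6 are shown because that gene separated the regimens most, with the letters CAAAGTCCA (read on the other strand, HNF4A) and GGAATG (TEAD) in capitals. Positions are those of RefSeq on GRCh38.p14, strand +, chr19:40991032-40991281.
CYP2B6: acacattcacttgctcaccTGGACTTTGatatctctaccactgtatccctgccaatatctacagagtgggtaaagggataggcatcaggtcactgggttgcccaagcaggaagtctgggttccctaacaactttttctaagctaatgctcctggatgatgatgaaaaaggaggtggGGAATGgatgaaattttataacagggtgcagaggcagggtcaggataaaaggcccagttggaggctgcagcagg
The sequence CAAAGTCCA was rare in these windows, which run from 250 bases before to 50 bases after a start. It occurred on either strand in 41 of the 11740 tested genes with a RefSeq window (0.349%), in 4 of the 610 called higher in IR (0.656%) and in 0 of the 761 called higher in CR. The 4 genes were CYP2B6, PDZK1, UNC5CL and LEAP2, named here after their values were seen, with log2 fold changes of 6.53, 1.81, 1.79 and 1.74.

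The palindrome that the HNF1 factors bind occurred in a single window of the 11740, that of UGT1A3. It starts at base -64 and is in capitals in the last 100 bases before the start (chr2:233728942-233729041, strand +).
UGT1A3: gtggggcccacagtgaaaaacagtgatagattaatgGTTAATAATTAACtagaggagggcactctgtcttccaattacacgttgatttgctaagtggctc
UGT1A3 conjugates bile acids and drugs and was at 40.7 and 36.6 CPM in IR and 12.5 and 9.37 CPM in CR (log2 fold change 1.74, adjusted p = 0.0266). It shares its last exons with UGT1A1, so that the values of the pair are not independent.

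UGT2B15, which conjugates androgens and drugs, was at 55.8 and 71.9 CPM in IR and 2.14 and 3.07 CPM in CR (log2 fold change 4.17 ± 0.62, adjusted p = 0.00121). Of its relatives on chromosome 4, the called ones were higher in IR too: UGT2B17 was at 11.7 and 15.6 CPM in IR and 0.530 and 0.685 CPM in CR, UGT2B11 at 2.82 and 7.35 against 0.119 and 0.209 CPM, UGT2B10 at 6.52 and 6.23 against 1.84 and 2.44 CPM, and UGT2B28 at 3.47 and 3.74 against 1.05 and 1.75 CPM. UGT2B4 and UGT2B7 did not pass. UGT2B4 overlapped, at 21.2 and 38.2 CPM in IR and 22.5 and 33.8 CPM in CR (log2 fold change 0.04, adjusted p = 0.977), and UGT2B7 was at 65.2 and 45.1 against 25.7 and 23.6 CPM (log2 fold change 1.11, adjusted p = 0.0567). The UGT2B genes are near-identical copies, and since the authors kept only reads with a single place in the genome, each rests on the bases in which it differs from the rest. SULT1E1, the estrogen sulfotransferase a little farther along the same chromosome, was at 319.7 and 299.8 CPM in IR and 68.3 and 32.4 CPM in CR (log2 fold change 2.69, adjusted p = 0.00162). SULT1E1, UGT2B11, UGT2B17 and UGT2B28 were picked for their place beside UGT2B15 after the values were seen.

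Of 36 hepatocyte metabolic enzymes tested, 7 were higher in IR (19.4%), 3 higher in CR (8.33%) and 26 did not pass, with a median log2 fold change of 0.09 beside -0.03 over all genes. The 7 became 5 without IR replicate 1, 3 without IR replicate 2, 3 without CR replicate 1 and 4 without CR replicate 2, and the 3 became 1 without IR replicate 1, 2 without IR replicate 2, 4 without CR replicate 1 and 0 without CR replicate 2. CYP3A7, the fetal liver P450, was at 2.703 and 14.2 against 0.463 and 0.362 CPM and was not called without IR replicate 2 (adjusted p = 0.136), CR replicate 1 (0.0691) or CR replicate 2 (0.0905). UGT1A1, the enzyme of bilirubin, was at 48.2 and 41.3 against 14.6 and 10.6 CPM, and was not called without any one library (adjusted p 0.0882 to 0.198). In the other direction, FAH, the last enzyme of tyrosine breakdown, was at 15.7 and 16.1 CPM in IR and 29.9 and 39.5 CPM in CR (log2 fold change -1.06). PYGL, the liver glycogen phosphorylase, was at 48.9 and 55.2 against 84.6 and 104 CPM, and FBP1, of gluconeogenesis, was at 0.348 and 0.0569 against 0.741 and 1.56 CPM. FAH was not called without CR replicate 2 (adjusted p = 0.0684). PYGL was not called without IR replicate 1 (adjusted p = 0.0716) or CR replicate 2 (0.105). FBP1 was not called without IR replicate 1 (adjusted p = 0.0584), IR replicate 2 (0.255) or CR replicate 2 (0.281), and lost the call under 9 of the 16 alternatives in all.

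**Figure D2:**
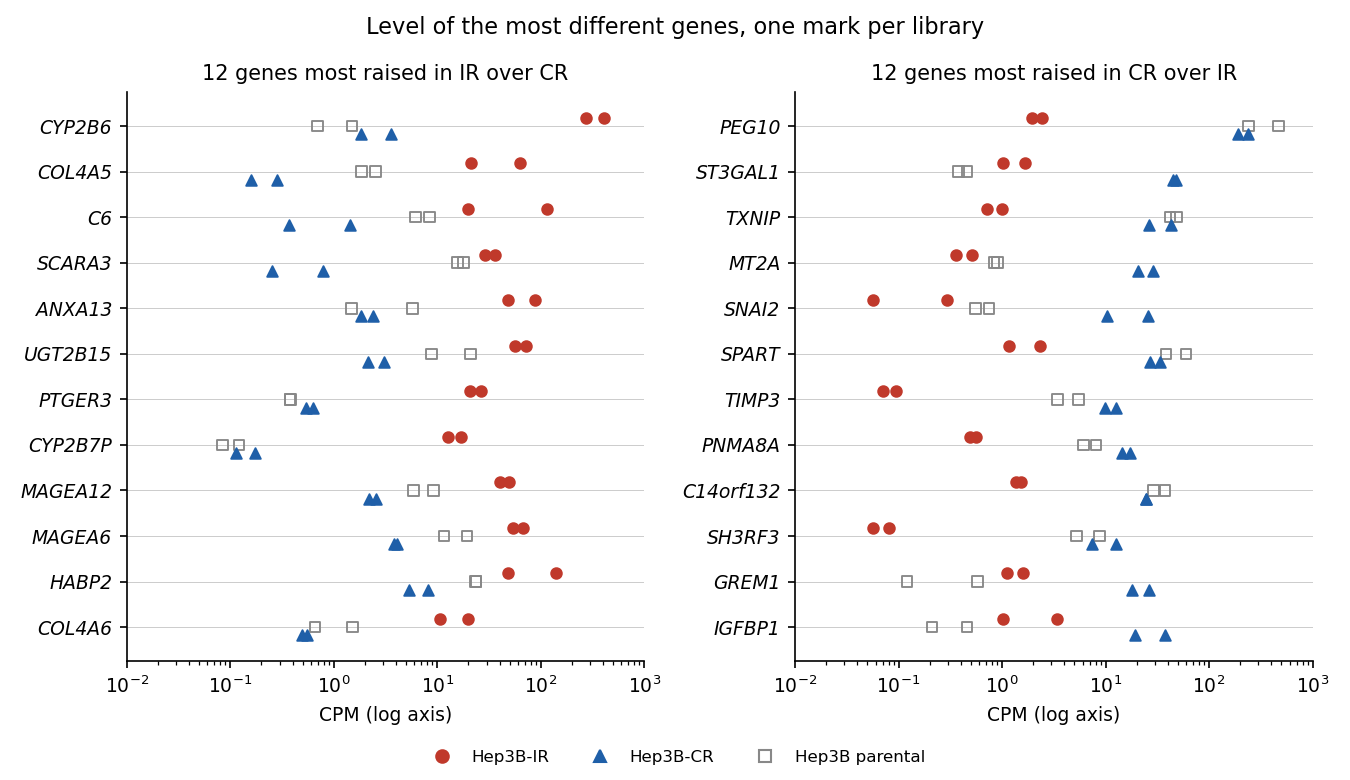
CPM (log axis) of the 12 genes with the largest difference in each direction, one mark per library, with Hep3B-IR as red circles, Hep3B-CR as blue triangles and parental Hep3B as grey squares. In each row both IR marks lie on one side of both CR marks, which the choice of these genes required. The parental marks lie near the CR level in some rows, such as CYP2B6 and PEG10, and nearer the IR level in others, such as ST3GAL1 and MT2A.

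More hepatocyte plasma proteins were called towards IR than towards CR. Of 45 tested, 8 were higher in IR (17.8%), 3 higher in CR (6.67%) and 34 did not pass, and the median log2 fold change was 0.39. AFP, the fetal counterpart of albumin and a serum marker of liver cancer, was at 26.4 and 103 CPM in IR and 5.27 and 3.73 CPM in CR, beside 268 and 116 CPM in parental cells (log2 fold change 3.29 ± 0.54, adjusted p = 0.00229). Albumin itself, ALB, was at 1682 and 5526 CPM in IR and 655 and 753 CPM in CR, beside 12152 and 13348 CPM in parental cells (log2 fold change 2.12 ± 0.61, adjusted p = 0.0387). For both genes the order was CR, IR and parental, with IR replicate 2 closer to the parental cells than IR replicate 1 was. ITIH2, a serum protein that binds hyaluronan, was at 231 and 459 against 35.6 and 60.1 CPM (log2 fold change 2.79, adjusted p = 0.00294). GC, the vitamin D carrier, was at 112 and 917 against 46.3 and 52.8 CPM (log2 fold change 2.67, adjusted p = 0.0414). SERPINA1, the elastase inhibitor, was at 1161 and 2052 against 336 and 430.5 CPM (log2 fold change 2.02, adjusted p = 0.0387). ITIH2 kept its call under all 17 alternatives, whereas ALB was not called without IR replicate 2 (adjusted p = 0.326), CR replicate 1 (0.154) or CR replicate 2 (0.142). GC was not called without IR replicate 2 (adjusted p = 0.351), CR replicate 1 (0.155) or CR replicate 2 (0.154). SERPINA1 was not called without any one library (adjusted p 0.06205 to 0.253). Without IR replicate 2 the log2 fold changes of ALB, GC and SERPINA1 were 1.26, 1.16 and 1.61.

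The IR libraries were apart on this list. In 41 of the 45 plasma proteins IR replicate 2 stood above IR replicate 1, with a median log2 difference of replicate 1 over replicate 2 of -0.45, beside 0.02 over all genes. Without IR replicate 2 the list had 3 members higher in IR, and without IR replicate 1 it had 10. Without CR replicates 1 and 2 in turn it had 3 and 4. The 3 members higher in CR were thrombin (F2), at 2.89 and 4.31 CPM in IR and 6.501 and 13.3 CPM in CR, the acute-phase protein ORM2, at 4.402 and 8.88 against 13.5 and 19.1 CPM, and C4BPB. The last, a chain of the complement inhibitor C4b-binding protein, was at 0.254 and 0.156 against 1.39 and 3.58 CPM. Their adjusted p lay between 0.03805 and 0.0452. With the correction for GC content and length the list had 0 members higher in CR. F2 was not called without IR replicate 1 (adjusted p = 0.212), IR replicate 2 (0.104), CR replicate 2 (0.336) or by edgeR (0.0664), and lost the call under 11 of the 17 alternatives in all. ORM2 was not called without IR replicate 1 (adjusted p = 0.275), CR replicate 1 (0.0852), CR replicate 2 (0.255), by edgeR (0.174) or by DESeq2 (0.232), and lost the call under 10 of the 17 alternatives in all. C4BPB was not called without IR replicate 1 (adjusted p = 0.113), IR replicate 2 (0.1804) or CR replicate 2 (0.281).

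C6, a part of the complement pore that is in none of the lists, was at 19.9 and 114 CPM in IR and 0.371 and 1.45 CPM in CR (log2 fold change 4.74 ± 0.71, adjusted p = 0.00123). HABP2, a protease that acts on clotting factor VII, was at 48.7 and 141 against 5.296 and 8.11 CPM (log2 fold change 3.47, adjusted p = 0.00747), and was not called without IR replicate 2 (adjusted p = 0.0906) or CR replicate 1 (0.0606). In both genes IR replicate 2 was the highest of the 4 libraries. ANXA13, an annexin of epithelial membranes, was at 47.9 and 87.4 CPM in IR and 1.84 and 2.42 CPM in CR, and SCARA3, a scavenger receptor, at 28.8 and 36.1 against 0.252 and 0.781 CPM. PTGER3, a receptor of prostaglandin E2, was at 20.7 and 26.4 CPM in IR, 0.543 and 0.628 in CR and 0.377 and 0.3798 in parental cells. These 3 genes kept their calls under all 17 alternatives.

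Lipoprotein genes also had more calls towards IR. Of 21 tested, 7 were higher in IR (33.3%), 1 higher in CR (4.76%) and 13 did not pass, with a median log2 fold change of 0.34. The count of 7 was 6 without IR replicate 1, 4 without IR replicate 2, 4 without CR replicate 1 and 4 without CR replicate 2. APOA1, the main protein of HDL, was at 3.73 and 30.6 CPM in IR and 1.01 and 1.85 CPM in CR (log2 fold change 2.35 ± 0.61, adjusted p = 0.0252). APOA2, the other main HDL protein, went the opposite way, at 204 and 627 CPM in IR and 992 and 1372 CPM in CR (log2 fold change -1.70 ± 0.43, adjusted p = 0.0235). APOA1 was not called without IR replicate 2 (adjusted p = 0.121), CR replicate 1 (0.133) or CR replicate 2 (0.0829). APOA2 was not called without IR replicate 1 (adjusted p = 0.167), CR replicate 1 (0.0614), CR replicate 2 (0.162) or by edgeR (0.0661). LIPC, the hepatic lipase, was at 33.97 and 30.05 against 6.36 and 7.33 CPM and was not called without any one library (adjusted p 0.127 to 0.137). MTTP, which loads lipid on to apolipoprotein B, was at 10.7 and 14.1 CPM in IR and 9.69 and 20.6 CPM in CR, the groups overlapped and the test was not passed (log2 fold change -0.19, adjusted p = 0.673).

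Of the 24 transcription factors of hepatocytes tested, 2 were higher in IR (8.33%, beside 5.33% over all genes) and 22 did not pass. The median log2 fold change was 0.30. ONECUT1, or HNF6, was at 18.1 and 21.4 CPM in IR and 3.15 and 5.22 CPM in CR, beside 21.9 and 19.5 CPM in parental cells (log2 fold change 2.02 ± 0.23, adjusted p = 0.000196). The IR libraries were at the parental level and the CR libraries well below it, and the call held under all 17 alternatives. HNF4A, the factor at the head of this group, was at 219.8 and 153.5 CPM in IR and 118.8 and 115.2 CPM in CR, and its log2 fold change of 0.65 did not pass (adjusted p = 0.232).

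**Figure D3:**
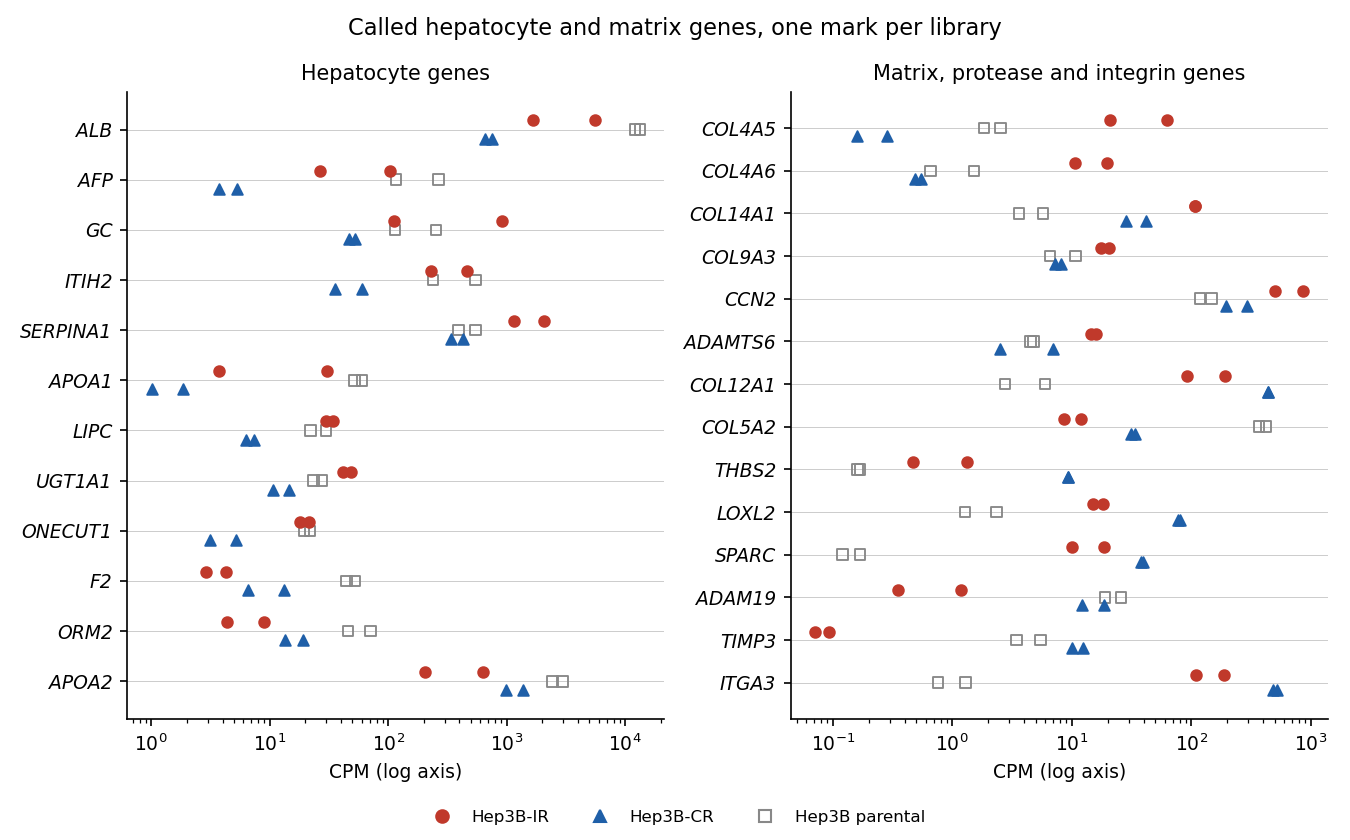
CPM (log axis) of 12 called hepatocyte genes (left) and 14 called matrix, protease and integrin genes (right), one mark per library, with Hep3B-IR as red circles, Hep3B-CR as blue triangles and parental Hep3B as grey squares. IR replicate 2 is the rightmost IR mark of ALB, AFP, GC and APOA1, and for COL12A1, SPARC and ITGA3 the resistant libraries all lie above the parental ones, CR more than IR.

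Matrix genes were called in both directions. Of 33 collagens and laminins tested, 4 were higher in IR (12.1%), 3 higher in CR (9.09%) and 26 did not pass, with a median log2 fold change of -0.02. The 4 became 2 without IR replicate 1, 2 without IR replicate 2, 2 without CR replicate 1 and 3 without CR replicate 2, and the 3 became 4 without IR replicate 1, 2 without IR replicate 2, 3 without CR replicate 1 and 3 without CR replicate 2. With the correction for GC content and length the 4 became 8 and the median 0.15. COL4A5 and COL4A6, which code for the α5 and α6 chains of basement membrane collagen IV, made up the largest matrix difference. COL4A5 was at 21.05 and 62.8 CPM in IR, 0.159 and 0.286 CPM in CR, 1.84 and 2.55 CPM in parental cells and 35 and 48.5 CPM in the DMSO libraries (log2 fold change 4.94 ± 0.45, adjusted p = 3.84e-05). COL4A6 was at 10.6 and 19.7 against 0.4899 and 0.552 CPM, beside 0.6596 and 1.52 CPM in parental cells and 6.75 and 9.35 CPM in the DMSO libraries (log2 fold change 3.35 ± 0.48, adjusted p = 0.000954). For COL4A5 the IR libraries were above the parental cells and overlapped the DMSO libraries, and the CR libraries were below both. The genes lie head to head on chromosome X, with 379 bases between their annotated starts. The 250 bases before the start of COL4A5 are shown because the pair moved together (chrX:108439588-108439837, strand +, capitals for the 121 bases that also lie within 250 bases of the COL4A6 start).
COL4A5: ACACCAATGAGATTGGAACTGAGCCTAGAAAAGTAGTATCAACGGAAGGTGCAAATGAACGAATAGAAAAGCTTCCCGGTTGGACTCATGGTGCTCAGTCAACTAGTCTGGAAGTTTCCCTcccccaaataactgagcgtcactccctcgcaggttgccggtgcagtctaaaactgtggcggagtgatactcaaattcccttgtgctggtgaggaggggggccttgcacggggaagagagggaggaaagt
None of the 6 motifs searched was found in the RefSeq windows of COL4A5 or COL4A6. COL14A1, a collagen bound to fibrils, was at 108 and 108 CPM in IR and 28.8 and 41.96 CPM in CR (log2 fold change 1.61, adjusted p = 0.0158), and COL9A3 at 17.4 and 20.4 against 8.17 and 7.31 CPM (log2 fold change 1.19, adjusted p = 0.0345). COL14A1 was not called without IR replicate 1 (adjusted p = 0.0674), IR replicate 2 (0.0898) or CR replicate 1 (0.112). COL9A3 was not called without any one library (adjusted p 0.0884 to 0.189), by edgeR (0.192) or by DESeq2 (0.1301).

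Higher in CR was COL5A2, of fibril-forming collagen V, at 12.04 and 8.699 CPM in IR, 33.9 and 31.2 CPM in CR and 371 and 424 CPM in parental cells (log2 fold change -1.58), so that both resistant lines were far below the parental cells and IR the lowest. COL12A1, another fibril-associated collagen, showed the opposite relation, at 191 and 92.8 CPM in IR, 437 and 439 in CR and 2.77 and 5.99 in parental cells (log2 fold change -1.71, adjusted p = 0.00468). COL12A1 was not called without IR replicate 2 (adjusted p = 0.0531), while COL5A2 kept its call under all 17 alternatives.

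Of 49 other matrix glycoproteins and matrix-modifying enzymes tested, 1 was higher in IR (2.04%), 5 higher in CR (10.2%) and 43 did not pass, with a median of -0.09. The count of 5 was 4 without IR replicate 1, 2 without IR replicate 2, 3 without CR replicate 1 and 3 without CR replicate 2. THBS2, a thrombospondin that restrains blood vessel growth, was at 0.468 and 1.34 CPM in IR and 9.36 and 9.39 CPM in CR (log2 fold change -2.49 ± 0.18, adjusted p = 5.24e-06). LOXL2, which cross-links collagen, was at 18.3 and 14.95 against 77.03 and 80.03 CPM, and SPARC, which binds collagen, was at 18.5 and 10.1 against 38.1 and 39.3 CPM. PLOD3, which hydroxylates collagen lysines, was at 37.6 and 33.1 against 92.8 and 95.6 CPM. THBS2 and PLOD3 kept their calls under all 17 alternatives, while LOXL2 was not called without any one library (adjusted p 0.0814 to 0.156). SPARC was not called without IR replicate 2 (adjusted p = 0.101) or CR replicate 2 (0.0609). The member higher in IR was CCN2, a secreted matrix protein and a target of YAP, at 872 and 500.2 CPM in IR and 296 and 195 CPM in CR (log2 fold change 1.46, adjusted p = 0.00611). It was not called without IR replicate 1 (adjusted p = 0.0563) or CR replicate 2 (0.0738). Of the 21 YAP and TEAD targets tested, CCN2 was the single member called higher in IR (4.76%, beside 5.33% over all genes). FJX1 and PTPN14 were higher in CR (9.52%, beside 6.41% over all genes), and the median was -0.02. FJX1, a kinase of cadherins in the secretory path, was at 0.294 and 0.199 against 4.303 and 4.38 CPM and kept its call under all 17 alternatives. PTPN14, which holds YAP back, was at 69.8 and 58.03 against 103 and 96.6 CPM and was not called without any one library (adjusted p 0.0586 to 0.247) or by edgeR (0.0545).

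Matrix proteases and their inhibitors leaned to CR. Of 33 tested, 2 were higher in IR (6.06%), 7 higher in CR (21.2%) and 24 did not pass, with a median log2 fold change of -0.47. The 7 became 6 without IR replicate 1, 4 without IR replicate 2, 4 without CR replicate 1 and 5 without CR replicate 2. TIMP3, which inhibits metalloproteases in the matrix, was at 0.0937 and 0.0711 CPM in IR, 12.5 and 9.98 CPM in CR and 3.45 and 5.49 CPM in parental cells (log2 fold change -3.49 ± 0.25, adjusted p = 4.75e-06). ADAM19, a membrane protease, was at 1.18 and 0.355 CPM in IR, 18.5 and 12.1 in CR and 25.9 and 18.99 in parental cells (log2 fold change -3.22 ± 0.31, adjusted p = 5.50e-05). For both genes IR was far below the parental and DMSO libraries. The CR values of ADAM19 lay below those of parental cells and around those of the DMSO libraries, which were both at 13.3 CPM, and the CR values of TIMP3 lay between parental cells and the DMSO libraries, at 17.7 and 20.3 CPM. ADAM15, another membrane protease, was at 20.2 and 17.1 against 52.9 and 46.6 CPM, and kept its call under all 17 alternatives as TIMP3 and ADAM19 did. HTRA1, a secreted serine protease, was at 2.06 and 2.64 against 10.01 and 10.7 CPM, and was not called without any one library (adjusted p 0.0835 to 0.111) or by edgeR (0.0616). Higher in IR were ADAMTS6, at 16 and 14.5 against 7.004 and 2.53 CPM (adjusted p = 0.01), and ADAM10, which sheds membrane proteins, at 372 and 391 against 225 and 216 CPM (0.0147). ADAMTS6 was not called without IR replicate 1 (adjusted p = 0.0573), IR replicate 2 (0.0582) or CR replicate 2 (0.0977). ADAM10 was not called without any one library (adjusted p 0.0545 to 0.101).

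Of 21 integrin subunits tested, 2 were higher in CR (9.52%, beside 6.41% over all genes) and 0 in IR. The 2 became 2 without IR replicate 1, 1 without IR replicate 2, 2 without CR replicate 1 and 3 without CR replicate 2. ITGA3, the laminin-binding α3 chain, was at 189.9 and 111 CPM in IR, 486 and 521 CPM in CR and 1.29 and 0.7596 CPM in parental cells (log2 fold change -1.79 ± 0.32, adjusted p = 0.004103). It was high in both resistant lines and higher in CR, and was not called without IR replicate 2 (adjusted p = 0.0572). ITGA2B, the platelet integrin chain, was at 2.05 and 1.95 against 4.65 and 6.36 CPM and was not called by edgeR (adjusted p = 0.193) or by DESeq2 (0.201).

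Mesenchymal genes split. Of 24 markers and factors of the epithelial-mesenchymal transition tested, 1 was higher in IR (4.17%), 3 higher in CR (12.5%) and 20 did not pass, with a median of 0.01. The count of 3 was 2 without IR replicate 1, 1 without IR replicate 2, 1 without CR replicate 1 and 2 without CR replicate 2. SNAI2, the factor Slug that represses E-cadherin, was at 0.294 and 0.0569 CPM in IR, 25.9 and 10.4 CPM in CR and 0.552 and 0.746 CPM in parental cells (log2 fold change -3.91 ± 0.42, adjusted p = 0.000145). ZEB2, of the same group of repressors, was at 0.803 and 1.01 against 2.91 and 2.399 CPM, and was not called without any one library (adjusted p 0.122 to 0.186). The PDGF receptors, which Sorafenib inhibits, went opposite ways. PDGFRA was at 15.9 and 39.2 CPM in IR and 6.96 and 4.86 CPM in CR (log2 fold change 1.93, adjusted p = 0.00666) and PDGFRB at 1.36 and 1.12 against 3.95 and 2.13 CPM (log2 fold change -0.81, adjusted p = 0.0483). PDGFRA was not called without IR replicate 2 (adjusted p = 0.0742) or CR replicate 2 (0.06805). PDGFRB was not called without IR replicate 1 (adjusted p = 0.115), IR replicate 2 (0.238), CR replicate 1 (0.315) or by edgeR (0.0895), and lost the call under 13 of the 17 alternatives in all. AXL, a receptor kinase tied to drug tolerance in other cancers, was at 118 and 45.1 CPM in IR, 163 and 115 CPM in CR and 0.821 and 0.7596 CPM in parental cells, and the regimens overlapped (log2 fold change -0.89, adjusted p = 0.131). AHNAK2, a large scaffold protein, was at 28.6 and 6.42 against 101 and 62.03 CPM (log2 fold change -2.44 ± 0.49, adjusted p = 0.00741), and was not called without CR replicate 1 (adjusted p = 0.0696). In AXL and AHNAK2 IR replicate 2 was the lowest of the 4 libraries.

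Epithelial junction genes and keratins gave 1 member higher in each direction of 38 tested (2.63% each). These shares were below the 5.33% higher in IR and 6.41% higher in CR over all genes. KRT81, a hair keratin, was at 1.32 and 0.654 CPM in IR and 17.6 and 12.9 CPM in CR (log2 fold change -3.04, adjusted p = 2.35e-06), and DSC2, of desmosomes, at 142 and 133 against 82.8 and 70.9 CPM (log2 fold change 0.84, adjusted p = 0.00904). DSC2 was not called without IR replicate 1 (adjusted p = 0.0573), IR replicate 2 (0.0525) or CR replicate 2 (0.08701). GREM1, a secreted inhibitor of BMP signals, was at 1.59 and 1.12 CPM in IR and 26.3 and 18.1 CPM in CR (log2 fold change -3.28 ± 0.32, adjusted p = 6.37e-05). IGFBP1, a liver protein that binds insulin-like growth factors, was at 1.02 and 3.37 against 19.4 and 37.83 CPM (log2 fold change -3.25), the one plasma protein of liver among the 12 largest differences towards CR, and was not called without CR replicate 2 (adjusted p = 0.0609).

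PEG10 showed the largest difference towards CR. It is an imprinted gene derived from a retrotransposon, active in placenta and in liver cancer, and stood at 1.97 and 2.43 CPM in IR, 189 and 236 CPM in CR, 241 and 471 CPM in parental cells and 2017 and 1872 CPM in the DMSO libraries (log2 fold change -6.06 ± 0.35, adjusted p = 8.80e-07). The CR libraries were just below the parental ones and well below the DMSO libraries, and the IR libraries were far below both. SGCE, the imprinted gene that starts next to PEG10 and runs the other way, was at 30.4 and 35.3 CPM in IR and 40.1 and 31.7 CPM in CR, with a log2 fold change of -0.12 that did not pass (adjusted p = 0.688). TXNIP, SPART and C14orf132 stood near the parental level in CR and far below it in IR. TXNIP, which binds thioredoxin and restrains glucose uptake, was at 0.9901 and 0.711 CPM in IR, 26.5 and 43.1 in CR and 41.99 and 48.7 in parental cells. SPART, of endosomes and mitochondria, was at 2.31 and 1.18, 33.3 and 27.04 and 38.4 and 60.1 CPM in the same order, and C14orf132 at 1.54 and 1.36, 24.5 and 24.5 and 29.1 and 37.6 CPM. PNMA8A was at 0.495 and 0.554 CPM in IR and 17.3 and 14.4 CPM in CR, and SH3RF3, a scaffold of JNK signals, at 0.0803 and 0.0569 against 12.7 and 7.46 CPM. ST3GAL1, a sialyltransferase, differed from these in that IR was near the parental level, at 1.66 and 1.02 CPM in IR, 44.8 and 47.4 in CR and 0.458 and 0.3798 in parental cells. All of these genes named after SGCE kept their calls under all 17 alternatives, with adjusted p between 3.63e-07 and 5.40e-05.

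Metallothioneins, small proteins that bind zinc and copper, were all on the CR side. All 7 tested had CR above IR without overlap, beside 36.8% of all genes, 2 were called (28.6%) and the median log2 fold change was -0.59. MT2A was at 0.508 and 0.355 CPM in IR, 28.4 and 20.5 CPM in CR and 0.835 and 0.9003 CPM in parental cells (log2 fold change -4.14 ± 0.54, adjusted p = 0.000505). MT1X was at 0.147 and 0.199 against 2.97 and 2.68 CPM (log2 fold change -1.70, adjusted p = 0.0138), which was not called without any one library (adjusted p 0.0657 to 0.0768). MT1 and MT2 genes are near-identical and their reads are hard to assign. Among the 7 genes with a RefSeq window of the 12 with the largest difference towards CR, the AP-1 letters TGANTCA were found in the windows of MT2A and SPART, starting at bases -104 and -215. The last 150 bases before the start of MT2A are shown for the site nearer to a start, in capitals (chr16:56608434-56608583, strand +).
MT2A: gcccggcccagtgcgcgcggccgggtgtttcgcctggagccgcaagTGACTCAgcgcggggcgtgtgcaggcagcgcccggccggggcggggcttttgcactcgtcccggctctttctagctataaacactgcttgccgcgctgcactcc
TGANTCA occurred in 4.57% of all 11740 windows, in 6.89% of those of genes higher in IR and in 5.26% of those higher in CR. GGAATG was in 10.9%, 11.5% and 10.9%, in the same order. CACGTG, the E-box, was in 9.96%, 6.23% and 8.28%, and ACGTG, the core of the hypoxia response element that also lies within CACGTG, in 26.2%, 19.0% and 27.3%. The windows differed in base composition too, with a median GC content of 64.7% over all tested genes, 61.8% for genes higher in IR and 66.7% for genes higher in CR.

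Output genes of the RAF-ERK cascade, which Sorafenib was designed to block, were split. Of 26 tested, 3 were higher in IR (11.5%), 5 higher in CR (19.2%) and 18 did not pass, with a median of 0.10. The 5 became 1 without IR replicate 1, 1 without IR replicate 2, 0 without CR replicate 1 and 2 without CR replicate 2. DUSP4, a phosphatase that ERK induces against itself, was at 66.97 and 68.9 CPM in IR and 19.9 and 30.6 CPM in CR (log2 fold change 1.42 ± 0.19, adjusted p = 0.000663). SPRY1, a feedback inhibitor of receptor kinases, was at 44.9 and 42.2 against 22.9 and 26.8 CPM (log2 fold change 0.79, adjusted p = 0.00376). Both kept their calls under all 17 alternatives. FOS was at 1.71 and 5.02 against 0.4104 and 0.5902 CPM and was not called without IR replicate 2 (adjusted p = 0.181), CR replicate 1 (0.1) or CR replicate 2 (0.0796). On the CR side were FOSL1, at 2.301 and 3.64 against 6.7 and 7.96 CPM, and EMP1 at 0.736 and 0.654 against 2.25 and 2.86 CPM. HBEGF, a ligand of the EGF receptor, was at 14.8 and 17.7 against 34.1 and 27.8 CPM, and cyclin D1 (CCND1) was at 73.4 and 64.1 against 129 and 115 CPM. FOSL1 was not called without any one library (adjusted p 0.0748 to 0.207) or by edgeR (0.104), and lost the call under 9 of the 17 alternatives in all. EMP1 was not called without any one library (adjusted p 0.0556 to 0.132). HBEGF was not called without IR replicate 1 (adjusted p = 0.0649) or CR replicate 1 (0.07302). CCND1 was not called without IR replicate 2 (adjusted p = 0.0859) or CR replicate 1 (0.0686).

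Genes of DNA replication and mitosis leaned to IR. Of 50 tested, 10 were higher in IR (20%), none higher in CR and 40 did not pass, and 47 had a log2 fold change above 0, with a median of 0.61. In 40 of the 50 both IR libraries were above both CR libraries, where the share over all genes tested was 28.3%. KIF23, a motor of cell division, was at 93.5 and 63.3 CPM in IR, 34.9 and 27.4 CPM in CR and 156 and 140.2 CPM in parental cells (log2 fold change 1.29 ± 0.27, adjusted p = 0.008704). CCNB2, a mitotic cyclin, was at 108 and 70.1, 44.6 and 35.6 and 169 and 166 CPM (log2 fold change 1.11 ± 0.20, adjusted p = 0.00358). KIF20A was at 90.2 and 52.6 against 34.8 and 27.3 CPM and TTK, the spindle checkpoint kinase, at 99.6 and 58.6 against 46.3 and 31.9 CPM. The levels ran from parental cells through IR to CR in these genes, with IR replicate 1 above IR replicate 2. The 10 became 3 without IR replicate 1, 8 without IR replicate 2, 5 without CR replicate 1 and 1 without CR replicate 2. KIF23 was not called without IR replicate 1 (adjusted p = 0.0748) or CR replicate 2 (0.085). KIF20A was not called without IR replicate 1 (adjusted p = 0.229), CR replicate 1 (0.0796) or CR replicate 2 (0.208). TTK was not called without IR replicate 1 (adjusted p = 0.2102) or CR replicate 2 (0.224).

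**Figure D4:**
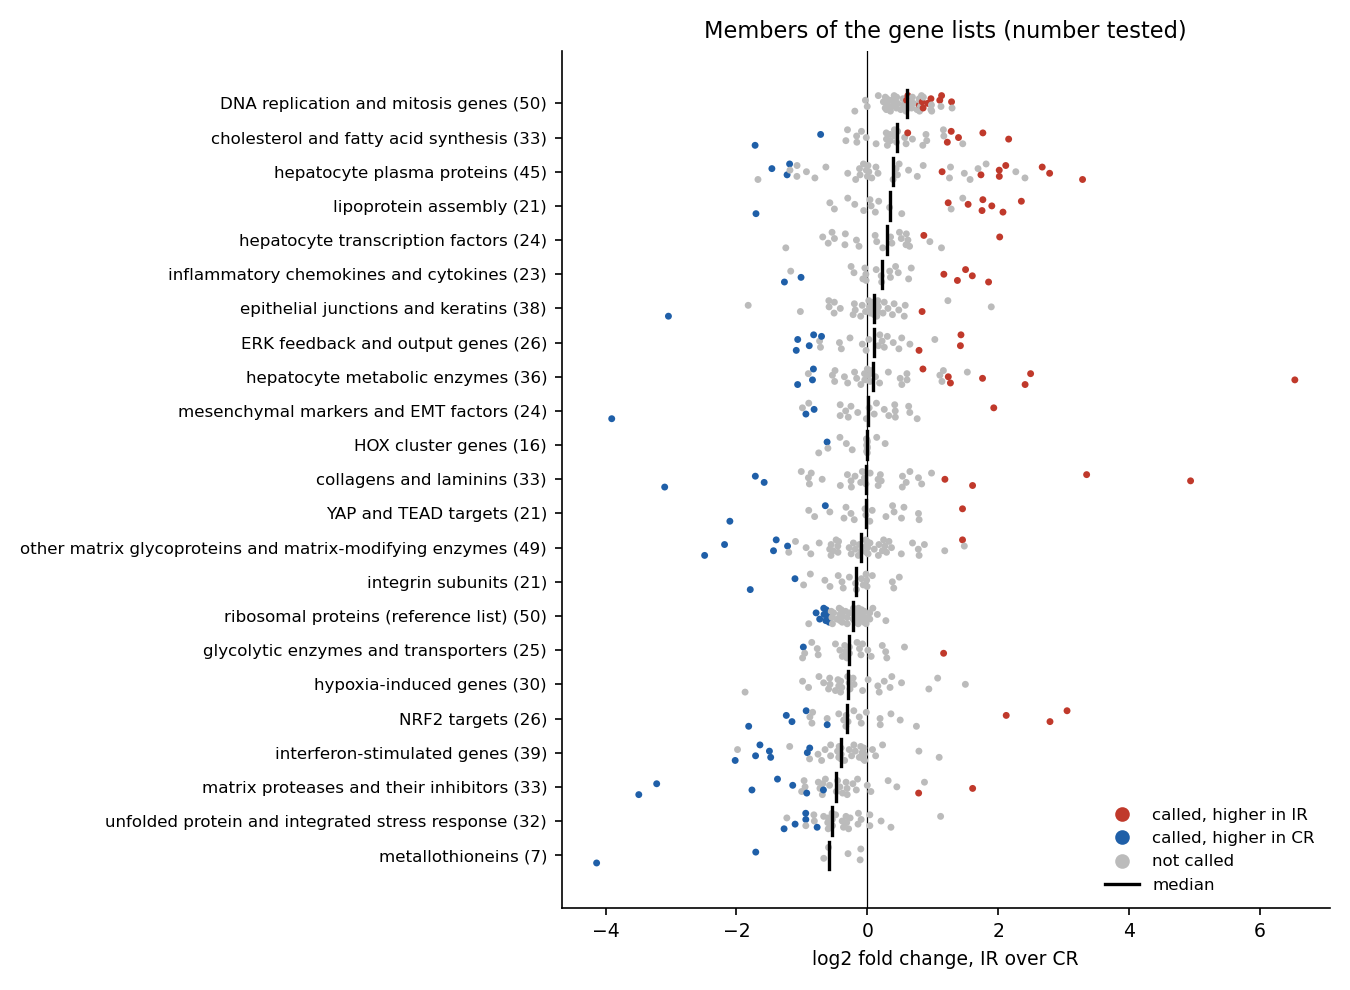
Log2 fold change (x axis, IR over CR) of each tested member of 23 gene lists (y axis, number tested in brackets), with members called higher in IR in red, higher in CR in blue and the rest in grey, and a black bar at the median of each list. Replication and mitosis genes lie to the right at a median of 0.61, and stress response genes and metallothioneins to the left at -0.53 and -0.59.

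Cholesterol and fatty acid synthesis gave 6 members higher in IR (18.2%) and 2 higher in CR (6.06%) of 33 tested, with a median of 0.45. SCD, which makes monounsaturated fatty acids, was at 706 and 1087 CPM in IR and 172 and 221 CPM in CR (log2 fold change 2.16 ± 0.52, adjusted p = 0.0183). IDI1, of the sterol pathway, was at 74.95 and 98.4 against 36.5 and 33.03 CPM, and STARD4, a carrier of cholesterol, at 11.7 and 19.6 against 5.67 and 4.66 CPM. ACACB, the mitochondrial acetyl-CoA carboxylase that checks fatty acid oxidation, went the other way at 1.499 and 0.995 against 5.15 and 7.73 CPM (log2 fold change -1.71, adjusted p = 0.00618), as did PMVK at 7.23 and 7.46 against 12.1 and 13.3 CPM. The 6 became 3 without IR replicate 1, 1 without IR replicate 2, 1 without CR replicate 1 and 1 without CR replicate 2. SCD was not called without IR replicate 2 (adjusted p = 0.144), CR replicate 1 (0.105) or CR replicate 2 (0.0711). STARD4 was not called without IR replicate 2 (adjusted p = 0.216), CR replicate 1 (0.0802) or CR replicate 2 (0.154). IDI1 was not called without any one library (adjusted p 0.0751 to 0.227). ACACB was not called without IR replicate 2 (adjusted p = 0.0655) or CR replicate 2 (0.0692). PMVK was not called without IR replicate 2 (adjusted p = 0.0508) or CR replicate 2 (0.06805).

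Stress genes leaned to CR. Of 32 genes of the unfolded protein and integrated stress responses tested, 5 were higher in CR (15.6%), none in IR and 27 did not pass, with a median log2 fold change of -0.53. CR lay above IR without overlap in 24, or 75.0%, beside 36.8% over all genes. The count of 5 was 3 without IR replicate 1, 3 without IR replicate 2, 2 without CR replicate 1 and 2 without CR replicate 2. The called members were chaperones of the endoplasmic reticulum and a phosphatase subunit. HYOU1 was at 275 and 333 CPM in IR and 592 and 717 CPM in CR (log2 fold change -1.10 ± 0.14, adjusted p = 0.000374). PDIA4 was at 171 and 212 against 379 and 353 CPM (log2 fold change -0.94, adjusted p = 0.00162), and both kept their calls under all 17 alternatives. HSPA5, the chaperone BiP, was at 386 and 519 against 742 and 997 CPM and was not called without any one library (adjusted p 0.0555 to 0.226) or by edgeR (0.0595). PPP1R15A, which restarts translation after stress, was at 166 and 129 against 373 and 336 CPM, and was not called without IR replicate 2 (adjusted p = 0.151), CR replicate 1 (0.103) or CR replicate 2 (0.0824). PDIA4 lies on chromosome 7, over which the median gene was also on the CR side.

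Interferon-stimulated genes gave 7 members higher in CR (17.9%), none in IR and 32 that did not pass, of 39 tested, with a median of -0.40. DDX60, a helicase of antiviral defence, was at 3.87 and 3.45 CPM in IR and 22.96 and 13.9 CPM in CR (log2 fold change -2.02 ± 0.31, adjusted p = 0.00152). IRF1, a transcription factor, was at 11.9 and 10.2 against 42.5 and 34.3 CPM (log2 fold change -1.71 ± 0.21, adjusted p = 0.0002804). MX1 was at 0.201 and 0.128 against 3.36 and 2.02 CPM and OAS3 at 0.1204 and 0.0284 against 2.33 and 1.75 CPM, both low. DDX60, IRF1 and MX1 kept their calls under all 17 alternatives, and OAS3 was not called without any one library (adjusted p 0.117 to 0.186). Here the 7 became 5 without IR replicate 1, 4 without IR replicate 2, 4 without CR replicate 1 and 4 without CR replicate 2.

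The list of NRF2 targets, genes of the antioxidant response, was divided between families. The aldo-keto reductases AKR1C1, AKR1C2 and AKR1C3, which reduce steroids and aldehydes, were the 3 members higher in IR of 26 tested (11.5%). AKR1C1 was at 135 and 164 CPM in IR, 10.9 and 26.4 CPM in CR and 1.25 and 1.196 CPM in parental cells (log2 fold change 3.05 ± 0.47, adjusted p = 0.00151). AKR1C2 was at 81.3 and 95.6 against 7.11 and 19.4 CPM and AKR1C3 at 24.3 and 26.5 against 3.57 and 6.99 CPM. They are adjacent and near-identical on chromosome 10, and AKR1C3 was not called without IR replicate 1 (adjusted p = 0.0529), IR replicate 2 (0.0863) or CR replicate 1 (0.104). Ferritin was among the 5 members higher in CR (19.2%), FTH1 at 309 and 352 CPM in IR and 623 and 976 CPM in CR (log2 fold change -1.24, adjusted p = 0.005196) and FTL at 1624 and 2549 against 3235 and 4675 CPM (log2 fold change -0.93, adjusted p = 0.0271). CBR1, a carbonyl reductase, was at 18.7 and 16.7 against 40.5 and 40.6 CPM and kept its call under all 17 alternatives, and AKR1B10 was at 0.0134 and 0.0569 against 1.96 and 3.47 CPM. FTH1 was not called without CR replicate 2 (adjusted p = 0.0607). FTL was not called without IR replicate 1 (adjusted p = 0.203) or CR replicate 2 (0.2198). AKR1B10 was not called without any one library (adjusted p 0.0915 to 0.2399). The median of the list was -0.31, and the 5 members higher in CR became 3 without IR replicate 1, 3 without IR replicate 2, 5 without CR replicate 1 and 1 without CR replicate 2.

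Of 23 inflammatory chemokines and cytokines tested, 5 were higher in IR (21.7%) and 2 higher in CR (8.70%), with a median of 0.22. The neutrophil attractants CXCL8, CXCL6 and CXCL1 sit together on chromosome 4. CXCL8 was at 117 and 128 CPM in IR and 51.2 and 30.7 CPM in CR (log2 fold change 1.61, adjusted p = 0.0177). CXCL6 was at 7.73 and 7.32 against 2.41 and 1.66 CPM (adjusted p = 0.00737) and CXCL1 at 9.94 and 15.1 against 5.23 and 3.199 CPM (log2 fold change 1.38, adjusted p = 0.0416). CCL20 was at 19.04 and 73.8 against 12.1 and 7.77 CPM, with IR replicate 2 well above IR replicate 1. IL11, at 8.63 and 6.11 against 22.7 and 15.7 CPM, and CSF1, the macrophage growth factor, at 17.9 and 13.5 against 37.4 and 27.99 CPM, were higher in CR. The 5 became 2 without IR replicate 1, 0 without IR replicate 2, 3 without CR replicate 1 and 0 without CR replicate 2. CXCL8 was not called without IR replicate 1 (adjusted p = 0.0629), IR replicate 2 (0.113) or CR replicate 2 (0.157). CXCL6 was not called without IR replicate 2 (adjusted p = 0.0507) or CR replicate 2 (0.0742). CXCL1 was not called without any one library (adjusted p 0.0669 to 0.263). CCL20 was not called without IR replicate 2 (adjusted p = 0.362), CR replicate 1 (0.0902) or CR replicate 2 (0.231). IL11 was not called without IR replicate 2 (adjusted p = 0.0889), CR replicate 1 (0.0739), by edgeR (0.114) or by DESeq2 (0.0583). CSF1 was not called without any one library (adjusted p 0.0666 to 0.248) or by edgeR (0.0514).

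Hypoxia and glycolysis were the axis that the study followed, with resistant cells set against parental ones. It assayed glycolysis in the Huh7 lines, and for resistant Hep3B cells it showed the HIF1α, USP29 and GLUT1 proteins. The values here are mRNA of IR against CR, and few genes of that axis passed the test between the regimens. The study also measured AHNAK2, AXL and SLC2A1 as targets of the HIF1α protein in Huh7 and HLE cells. Of these, AHNAK2, given above, was higher in CR (log2 fold change -2.44, adjusted p = 0.00741 by limma), and AXL and SLC2A1 did not pass. Of 30 hypoxia-induced genes tested, none was called by limma, with a median log2 fold change of -0.29, or -0.16 with the correction for GC content and length. By the looser rule 2 passed in IR and 1 in CR, edgeR called none and DESeq2 called 2 in IR. CR lay above IR without overlap in 16 of the 30 and below in 6, beside 36.8% and 28.3% of all genes. HIF1A was at 650.4 and 538 CPM in IR and 506 and 407 CPM in CR, without overlap, and its log2 fold change of 0.38 ± 0.22 did not pass (adjusted p = 0.279). VEGFA was at 368 and 284 against 276 and 225 CPM and HK2, hexokinase 2, at 182 and 216 against 168 and 258 CPM, with log2 fold changes of 0.37 and -0.07 that did not pass (adjusted p = 0.502 and 0.882). SLC2A1, the glucose transporter GLUT1, was at 150 and 88.1 CPM in IR, 162 and 161 in CR and 14.03 and 19.3 in parental cells. It was higher in both resistant lines than in parental cells, with both IR libraries under both CR libraries (log2 fold change -0.49, adjusted p = 0.331). HIF1A and VEGFA were also higher in both lines than in parental cells, which held 308 and 339 CPM of HIF1A and 71.3 and 57.4 CPM of VEGFA. HK2 was at 217 and 321 CPM in parental cells and was not raised in either resistant line. Its log2 fold change over parental cells was -0.41 in IR and -0.34 in CR. USP29, the deubiquitinase the study was about, had 2 and 1 reads in the IR libraries and 2 and 1 in the CR libraries, too few to compare. The 25 glycolytic enzymes and transporters tested had a median log2 fold change of -0.27, or -0.15 with the correction for GC content and length. CR lay above IR without overlap in 16 of them and below in 5, beside 36.8% and 28.3% of all genes. SLC2A2, the liver glucose transporter, was higher in IR at 1.07 and 2.02 against 0.132 and 0.0952 CPM (log2 fold change 1.17, adjusted p = 0.00308). PFKM was higher in CR at 10.1 and 13.1 against 20.8 and 26.7 CPM (log2 fold change -0.98, adjusted p = 0.0142), which was not called without IR replicate 1 (adjusted p = 0.101) or CR replicate 2 (0.125).

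Of 50 ribosomal protein genes, listed as a reference, 8 were higher in CR (16%, beside 6.41% over all genes) and none in IR, with a median of -0.21. CR was above IR without overlap in 35 of the 50, beside 36.8% of all genes. With the correction for GC content and length 3 were higher in CR. The called member with the largest difference was RPLP2 at 197 and 147 CPM in IR and 285 and 302 CPM in CR (log2 fold change -0.78), on chromosome 11. The 8 became 5 without IR replicate 1, 0 without IR replicate 2, 3 without CR replicate 1 and 0 without CR replicate 2. Of 16 HOX genes tested 1 was called (6.25%), beside 11.7% of all genes. NTS, or neurotensin, a peptide hormone found in some liver cancers, was at 3.33 and 4.02 CPM in IR, 18.5 and 10.2 in CR and 628 and 401 in parental cells, low in both resistant lines. The log2 fold change was -1.67 (adjusted p = 0.01695), and the gene was not called without IR replicate 1 (adjusted p = 0.0862), IR replicate 2 (0.0743) or CR replicate 1 (0.131).

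Several of the largest differences lay side by side in the genome. On chromosome X the cancer-testis genes MAGEA6, MAGEA12 and MAGEA3 and their neighbours CSAG1 and GABRA3 were higher in IR. MAGEA12 was at 40.1 and 49.5 CPM in IR and 2.54 and 2.21 CPM in CR (log2 fold change 3.76 ± 0.21, adjusted p = 8.69e-07). MAGEA6 was at 54.4 and 66.9 against 4.05 and 3.85 CPM, and MAGEA3 at 45.5 and 63.8 against 7.72 and 5.06 CPM. CSAG1 was at 17.1 and 17.2 CPM in IR and 0.887 and 0.933 CPM in CR, and GABRA3, a subunit of a GABA receptor, at 14.1 and 11.5 against 0.808 and 0.762 CPM. MAGEA2, which lies between MAGEA12 and MAGEA3, was at 20.6 and 23.1 CPM in IR and 18.4 and 16.1 CPM in CR and did not pass (log2 fold change 0.33, adjusted p = 0.207). MAGEA3 and MAGEA6 are near-identical, and CSAG1, GABRA3, MAGEA2 and MAGEA3 were looked up because of their place. On chromosome 4, the stretch from 60 to 80 Mb (GRCh37) held UGT2B15 and its copies, SULT1E1, GC, ALB, AFP and the CXCL genes. There 17 of its 70 tested genes were higher in IR (24.3%, beside 5.33% over all genes) and 3 higher in CR. One of the 3 was PARM1, at 5.86 and 3.67 CPM in IR and 30.7 and 46.5 CPM in CR.

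The difference between the regimens was also uneven between whole chromosomes. Of the 15019 genes, 14447 could be placed on a chromosome of GRCh37, and the median log2 fold change was 0.28 over the 480 genes of chromosome 15, -0.28 over the 723 of chromosome 7, -0.27 over the 808 of chromosome 11 and -0.31 over the 133 of chromosome 21. On chromosome 15, 82 genes (17.08%) were higher in IR and 17 higher in CR. Of the genes named above, KIF23, CCNB2, ONECUT1, LIPC and ADAM10 lie there and were higher in IR, and FAH and GREM1 were higher in CR. On chromosomes 7, 11 and 21, 98, 137 and 24 genes (13.55%, 16.96% and 18.05%) were higher in CR and 18, 22 and 2 higher in IR. These 3 chromosomes held 11.5% of the placed genes and 27.8% of the genes higher in CR. Of the genes named above and called higher in CR, PEG10, IGFBP1, PLOD3, AKR1B10 and PDIA4 lie on chromosome 7. MX1 and CBR1, also higher in CR, lie on chromosome 21. CYP3A7, on chromosome 7, was higher in IR. Setting each IR library against each CR library gave medians of 0.26 to 0.29 for chromosome 15, -0.29 to -0.24 for chromosome 7, -0.30 to -0.22 for chromosome 11 and -0.36 to -0.29 for chromosome 21. Replicates of a regimen differed by medians of -0.02 to 0.14 over all chromosomes, the largest being chromosome 19 between the IR libraries. In Huh7 cells the same contrast gave 0.07, 0.15, 0.10 and 0.21 for chromosomes 15, 7, 11 and 21.

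**Figure D5:**
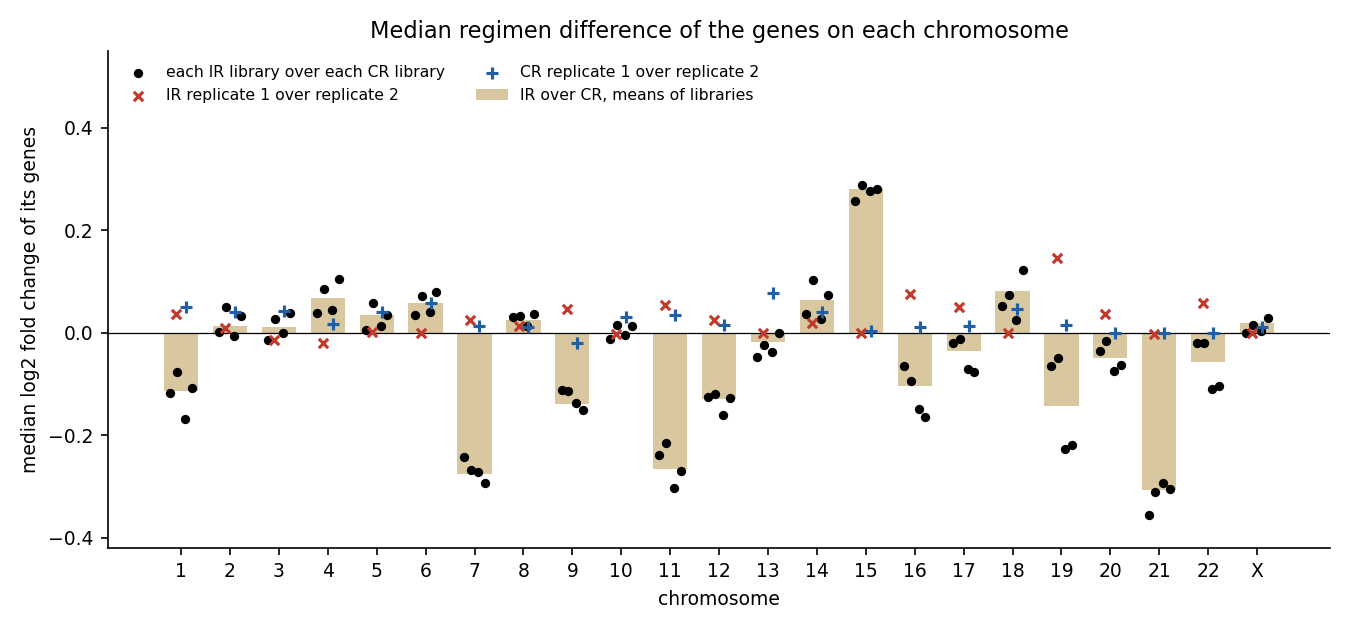
Median log2 fold change (y axis) of the tested genes of each chromosome (x axis), with bars for IR over CR, black points for each IR library over each CR library, and crosses for the differences between replicates of IR (red) and of CR (blue). For chromosomes 7, 11, 15 and 21 the 4 points of a chromosome lie together and away from 0, at -0.28, -0.27, 0.28 and -0.31 for the bars, while the crosses lie between -0.02 and 0.14.

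Within some chromosomes the shift had an edge. On chromosome 11 the 584 genes up to 80 Mb had a median log2 fold change of -0.42, with 129 (22.1%) higher in CR and 4 higher in IR, and the 224 genes beyond 80 Mb a median of 0.07, with 8 higher in CR and 18 higher in IR. On chromosome 1 the 820 genes up to 140 Mb had a median of 0.01 and the 633 genes beyond it a median of -0.31, with 106 of them (16.8%) higher in CR and 10 higher in IR. On chromosome 13 the 77 genes up to 40 Mb had a median of -0.46, with 28 (36.4%) higher in CR, SPART among them, and none higher in IR, and the 188 genes beyond had a median of 0.03. Set against parental cells, which the regimens share as a reference, the first stretch of chromosome 11 stood at -0.43 in IR and 0.03 in CR, the far stretch of chromosome 1 at -0.63 and -0.22, and the first stretch of chromosome 13 at -0.60 and -0.12. The edges were placed after the values had been seen. DNA copy number was not measured in these libraries, and its part in the shifts was not tested. Of the genes named above and called higher in CR, TXNIP, ADAM15, PMVK, APOA2, C4BPB and PTPN14 lie in the far stretch of chromosome 1. RPLP2, FTH1, CCND1, FOSL1, F2 and FJX1 lie in the first stretch of chromosome 11. A call needed a change of 0.58 or more, so that each had to exceed the median of its stretch.

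Across genes the log2 fold change also moved with base composition. Its Spearman correlation with the GC content of the transcript was -0.29 over the 14597 genes with an annotated transcript, and the difference between the IR replicates correlated with GC content at 0.28 and that between the CR replicates at -0.13. These are descriptions across genes, which are not independent replicates. After each library had been corrected for GC content and length, an alternative added after the data were seen, 883 genes were higher in IR and 835 higher in CR, and the chromosome medians were 0.30, -0.21, -0.19 and -0.27 for chromosomes 15, 7, 11 and 21.

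The Huh7 line was taken through the same pair of regimens, and the contrast between them can be set beside that of Hep3B. In Huh7 cells 2051 genes (13.7%) differed between IR and CR. Of the 1764 genes called in Hep3B, 63 were called in the same direction in Huh7 (3.57% of the Hep3B and 3.07% of the Huh7 calls) and 294 in the opposite direction (16.7% and 14.3%). Across the 15019 genes the log2 fold changes of the lines correlated with Pearson r = -0.28 and Spearman rho = -0.31, as a description over genes from contrasts that share no library. The interaction term passed the threshold for 3828 genes (25.5%), with 1438 larger in Hep3B (9.57%) and 2390 smaller (15.9%), and with TMM factors, which moved the median interaction over all genes from -0.14 to -0.01, the same test gave 1827 and 1819. It gave 888 and 1187 with Hep3B-IR replicate 2 left out, 1114 and 1576 with Hep3B-CR replicate 1 left out, 922 and 1431 with Hep3B-CR replicate 2 left out, and 805 and 1266 with Huh7-CR replicate 2 left out. Of the Hep3B calls, 1363 (77.3%) were also called in the interaction. The interaction holds the same Hep3B difference, so that genes chosen for a large one pass it more readily. ALB showed the reversal, since in Huh7 it was at 60.6 and 261 CPM in IR and 1147 and 2305 CPM in CR. The difference between the lines did not pass for ITIH2, at 16.1 and 40.2 CPM in Huh7-IR and 3.26 and 6.11 CPM in Huh7-CR (interaction 0.52, adjusted p = 0.606), nor for CCND1 (interaction -0.07, adjusted p = 0.864).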

How the data were processed

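RNA of the 16 libraries had been prepared with a poly(A)-selecting stranded mRNA kit and sequenced on a NextSeq 500, per the labels. The authors aligned the reads with STAR to hg19, kept reads with a single place in the genome and counted them over RefSeq exons. The strand setting of the counting, passage numbers and whether a line was a clone or a pool are not given in the sources used here, and the growth and treatment protocols in the labels name only the Huh7 lines. The deposited table holds CPM of 26258 genes, of which 26111 had a symbol. All values of the 4 libraries came out as whole reads within 0.05 of a read, at 52520852 to 75527374 reads a library, so that 3 reads, the most that 0 reads allow, are 0.0397 to 0.0571 CPM. These limits cover counting error only.

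Genes reaching 1 CPM in 2 or more of the 16 libraries were kept. The same filter on the 4 IR and CR libraries alone kept 13575 genes, with 817 called higher in IR and 972 higher in CR. The limma package (3.58.1, under R 4.3.3) fitted log2(CPM + 1) by group over the 8 groups, with a variance trend, and p-values were adjusted by Benjamini and Hochberg over all 15019 genes. A gene was called where the adjusted p was under 0.05 and the log2 change 0.58 or more, the fold of the study. Alternatives were edgeR 4.0.16 and DESeq2 1.42.0 on the recovered reads, TMM factors, quantile normalization, other pseudocounts and filters, fewer libraries, no variance trend, a replicate block, leaving out each library, and the study's unadjusted p. A correction for GC content and length, and the chromosome medians by pair of libraries, were chosen after seeing the data. The fits were tested on simulated data.

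The named genes were the 12 with the largest called difference in each direction, among genes whose IR and CR libraries did not overlap. Also named were up to 4 called members of each list a direction (for a list with none, the 2 with the highest level). The 3 largest line differences in each direction were added, as were 10 genes named by the study or in an earlier account. Some of the genes taken by this rule are not reported here. The members and lists were chosen with earlier results of these data known. Replicates of a regimen differed by an SD of 0.310 (IR) and 0.290 (CR) on the log2 scale over genes. Promoter windows came from RefSeq on GRCh38.p14, gene positions from GRCh37, and motifs were searched on both strands. The labels give 2 libraries a group, and the replicate numbers were not shown to pair the libraries.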

Additional observations from a re-analysis of the deposited data

Results flagged for a closer look

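The difference between IR and CR was itself different in Hep3B and Huh7 cells for many named genes, by the interaction term of the model. The 32 given in this section were taken for the size of a difference, or were named by the study or in an earlier account. Members of the lists that passed it too, such as HYOU1 at -1.90, IRF1 at -2.33 and PDGFRA at 4.28, are not gone through here. The values are the Hep3B log2 fold change minus that of Huh7, with adjusted p under 0.05 by limma. Among the genes highest in Hep3B-IR, the difference was 6.57 for CYP2B6, 5.40 for COL4A5, 5.39 for ANXA13, 5.04 for C6, 4.34 for UGT2B15, 4.26 for COL4A6, 4.11 for HABP2, 3.94 for SCARA3, 3.72 for MAGEA6, 3.70 for MAGEA12, 3.53 for PTGER3 and 3.49 for CYP2B7P. CYP2B6 was at 0.0497 and 0 CPM in Huh7-IR and 0.0773 and 0.0262 CPM in Huh7-CR, so that its difference came from the Hep3B side. Also low in these Huh7 libraries were MAGEA12 (0.0155 to 0.182 CPM), MAGEA6 (0.0429 to 0.464 CPM), CYP2B7P (0.118 to 0.696 CPM) and PTGER3 (0.0393 to 1.01 CPM). Their values therefore mostly repeat the Hep3B fold change.

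Among the genes highest in Hep3B-CR, the difference was -5.45 for MT2A, -5.37 for PEG10, -4.78 for GREM1, -4.08 for TXNIP, -3.80 for ST3GAL1, -3.58 for C14orf132, -3.57 for SPART, -3.56 for PNMA8A, -3.40 for SH3RF3, -2.96 for IGFBP1, -2.90 for TIMP3 and -2.81 for SNAI2. SPART (0 to 0.0644 CPM), SH3RF3 (0 to 0.0829 CPM) and PNMA8A (0.0262 to 0.107 CPM) were near 0 in the Huh7-IR and Huh7-CR libraries. Their differences came from the Hep3B side as well. GREM1 was at 39.7 and 21.3 CPM in Huh7-IR and 13.1 and 7.03 CPM in Huh7-CR, higher in IR there.

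KLB, the co-receptor of FGF19 and FGF21 in hepatocytes, gave the largest difference after CYP2B6 with Hep3B above Huh7 among genes called in both tests, at 5.82. In Hep3B it was at 44.4 and 65.2 CPM for IR and 9.81 and 10.99 for CR, and in the other line at 0.547 and 3.26 CPM in Huh7-IR and 22.6 and 37.2 in Huh7-CR, so that the order of the regimens was turned round. ALB at 5.80 and AFP at 5.32 were likewise higher in IR in Hep3B and higher in CR in Huh7. FHOD3, which assembles actin filaments, had the largest difference the other way among such genes, at -6.13, with 0.749 and 0.142 CPM for IR and 8.86 and 5.39 for CR in Hep3B, 83.2 and 25.1 in Huh7-IR and 3.11 and 2.45 in Huh7-CR. SLFN5, of an interferon-induced family, followed at -5.91, with 27.7 and 23.4 CPM for IR and 176 and 152 for CR in Hep3B, 94.2 and 76.1 in Huh7-IR and 13.6 and 4.35 in Huh7-CR. ITGA3 stood at -4.62, AHNAK2 at -4.01 and NTS at -1.87. ITGA3 was at 702 and 611 CPM in Huh7-IR and 101 and 82.3 CPM in Huh7-CR. Each regimen and line is a single resistant line, and the part of chance differences between such lines was not tested.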

How the results depend on the processing

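Of the 120 called genes among the 129 that the naming rule took, 48 passed the threshold under all 17 alternatives, and of 2190 gene values under an alternative 1849 kept direction and side of the threshold, 333 lost the call, 2 gained it and 6 changed sign. The counts of 801 and 963 moved by over 1.5 times with an unadjusted p (1482 higher in CR) and with a library left out (326 to 507 higher in IR, 339 to 644 higher in CR), and edgeR gave 820 and 784, DESeq2 1139 and 1070. The line difference, 1438 larger and 2390 smaller in Hep3B, ranged over 805 to 1720 and 1187 to 2870 with a library left out, and was 1740 and 1530 after correction for GC content and length, 1622 and 1740 with edgeR, 2092 and 2114 with DESeq2, and 1848 and 2038 after quantile normalization. A lone library in a left-out fit is assumed to vary like the other groups. Genes that changed sign, none of them called, were HK2 (-0.38 to 0.23 with a library left out, 0.013 with the GC correction), PECAM1 (-0.050 to 0.36 with a library left out), LYZ (-0.36 to 1.15), MTTP (-0.70 to 0.32). With the GC correction the medians of chromosomes 19 (-0.14 to 0.029), 16 (-0.10 to 0.0049), 22 (-0.06 to 0.11), 20 (-0.05 to 0.03) and 17 (-0.04 to 0.06) changed sign, and those of collagens and laminins (-0.02 to 0.15), YAP and TEAD targets (-0.02 to 0.06), mesenchymal genes (0.01 to -0.02) and HOX genes (-0.01 to 0.08). The same correction moved the ERK and NRF2 lists from 5 to 3 members higher in CR, and the hypoxia list from 0 to 2 higher in IR. The causes were not tested. Deviations of same-numbered IR and CR libraries correlated at 0.24 across genes and those of parental and DMSO libraries at -0.16, and with the replicate block the counts were 814 and 943, and 1439 and 2307 for the line difference. Of 1008 list counts under an alternative, 736 stayed within 1.5 times, and 105 of the others came from leaving out a library.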
